A study of Rattus norvegicus with 3 samples.

Results

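mTEC1 is a label that the depositors gave to a set of medullary thymic epithelial cells in a library of rat thymic stroma. Members were the stromal cells whose deposited projected label, or initial cluster where no projected label was given, reads TEC:mTEC1, where TEC stands for thymic epithelial cell. There were 482 of them among 13226 annotated stromal cells, a share of 3.64% (exact binomial interval 3.33 to 3.98%), and among 2295 cells that carry any of 13 TEC labels. All 482 had a projected label. The other 12 TEC labels hold 1813 cells and serve as comparators. They were early Pr with 1018 cells, cTEC, the cortical epithelial cells, with 448, mTEC-prol with 76, mTEC2 with 61, 2 labels named aaTEC with 44 and 29, and mimetic labels named goblet, muscle, tuft, basal, neuroendo and ionocyte with 1 to 55 cells.

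The series profiled the thymus of Lewis rats aged 8 weeks, for which the labels name no treatment, by droplet single-cell RNA sequencing of 1 stromal and 1 thymocyte library, and by Stereo-seq spatial sequencing of 1 section of 10 µm. Stroma was released with Liberase TH and DNase I and kept as CD45-negative cells by magnetic and then flow sorting, and collagenase D replaced Liberase for the thymocytes. The number of animals behind each library is not given in the sources used here. No group has a replicate, so no difference below was tested. Intervals are 95% and cover counting error only, that is, how well the counted molecules fix a level in this library and not how rats differ. Because the labels were assigned from the same expression values, differences between labels are descriptions of what the labels separate.

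The thymic medulla is the site where newly selected thymocytes are screened for reactivity to self. Medullary epithelial cells are usually divided into CCL21-producing cells with low class II MHC, which attract positively selected thymocytes out of the cortex through the receptor CCR7, and Aire-expressing cells with high class II MHC, which display tissue antigens. Keratins 5 and 14 are intermediate filaments of basal epithelium and have long served to stain the medulla. Between these states lie transit-amplifying cells that respond to RANK and CD40 ligands through NF-kB.

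The 482 mTEC1 cells contained 6432876 UMIs, a UMI being 1 counted RNA molecule. The median cell had 11916 UMIs (lowest 745, highest 36370), 4038 detected genes and 1.13% mitochondrial UMIs, against a median of 9088 UMIs over all annotated stroma. Levels below are UMIs of a gene summed over the cells of a label, per 1000000 UMIs of that label (CPM). A gene is called higher or lower where 2 levels differ at least 2-fold and their mean is at least 10 CPM. The stromal and thymocyte libraries shared 38 of their 16160 and 8574 barcodes, and 1 of the 38 is an mTEC1 barcode.

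Promoter sequences are shown for the genes on which the results turn. These are both CCR7 ligands, Ccl21 and Ccl19, the 3 Reg3 genes, which are among the 15 genes with the largest ratio in mTEC1, and Krt5, a keratin that mTEC1 shares with other epithelial labels. Each is the 250 bases before the transcription start, read 5′ to 3′ on the gene's strand, from RefSeq on the build GRCr8. The depositors aligned to mRatBN7.2, so these coordinates belong to the sequences and not to the counts. Capitals mark matches to the motifs described after the sequences.
Ccl21: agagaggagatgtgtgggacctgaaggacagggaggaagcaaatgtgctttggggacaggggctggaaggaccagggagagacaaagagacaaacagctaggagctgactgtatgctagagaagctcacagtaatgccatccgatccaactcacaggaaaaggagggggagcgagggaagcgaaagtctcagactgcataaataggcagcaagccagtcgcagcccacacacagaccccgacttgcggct
Ccl19: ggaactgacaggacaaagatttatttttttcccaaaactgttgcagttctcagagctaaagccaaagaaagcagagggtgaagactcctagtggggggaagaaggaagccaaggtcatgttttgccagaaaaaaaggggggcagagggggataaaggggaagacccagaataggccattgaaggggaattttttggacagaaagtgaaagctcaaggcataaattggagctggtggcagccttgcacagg
Reg3a: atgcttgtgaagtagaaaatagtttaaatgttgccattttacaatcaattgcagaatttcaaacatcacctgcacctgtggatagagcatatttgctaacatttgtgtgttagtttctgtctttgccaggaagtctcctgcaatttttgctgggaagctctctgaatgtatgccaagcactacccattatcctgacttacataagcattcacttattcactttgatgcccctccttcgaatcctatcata
Reg3b: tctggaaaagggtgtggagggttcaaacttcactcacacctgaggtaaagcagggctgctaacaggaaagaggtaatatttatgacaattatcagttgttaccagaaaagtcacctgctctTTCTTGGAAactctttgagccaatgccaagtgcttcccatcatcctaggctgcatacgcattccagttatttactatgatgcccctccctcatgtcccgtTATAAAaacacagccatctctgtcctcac
Reg3g: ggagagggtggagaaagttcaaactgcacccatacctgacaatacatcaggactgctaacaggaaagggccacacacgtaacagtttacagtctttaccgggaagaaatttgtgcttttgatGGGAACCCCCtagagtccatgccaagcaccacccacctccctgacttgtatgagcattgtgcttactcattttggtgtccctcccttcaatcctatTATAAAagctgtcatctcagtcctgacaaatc
Krt5: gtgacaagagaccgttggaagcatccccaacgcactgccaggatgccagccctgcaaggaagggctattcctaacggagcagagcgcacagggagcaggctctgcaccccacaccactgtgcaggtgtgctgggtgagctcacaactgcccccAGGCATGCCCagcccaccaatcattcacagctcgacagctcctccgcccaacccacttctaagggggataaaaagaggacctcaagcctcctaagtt
On GRCr8 the printed windows lie at chr5:61777516-61777765 for Ccl21 and chr5:61761165-61761414 for Ccl19, both on the minus strand. The Reg3 windows lie at chr4:112430147-112430396 for Reg3a and chr4:112419526-112419775 for Reg3b, both on the plus strand, and at chr4:112484739-112484988 for Reg3g on the minus strand. The Krt5 window is chr7:134730570-134730819 on the minus strand. Each is the upstream flank of its gene in the annotation. Reg3a has more than 1 annotated start, and the first is printed.

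A set of 5 motifs were searched on both strands from 250 bases before to 50 bases after each start. They were TATAAA (the TATA box), TGANTCA (AP-1), TTCNNNGAA (STAT), and the NF-kB consensus and the p53/p63 half-site consensus by name. Of the 33469 promoters in the table, 14.2% held TATAAA, 7.33% the AP-1 motif, 8.87% the STAT motif, 4.18% the NF-kB consensus and 7.98% the p53/p63 half-site. Reg3b held TATAAA starting at position -29 and the STAT motif at -129, counted from the start. Reg3g held TATAAA at -32 and, on the opposite strand, the NF-kB consensus at -128. Krt5 held a p53/p63 half-site at -97, and the printed windows of Ccl21, Ccl19 and Reg3a held none of these letters. Of the 15 genes with the largest ratio in mTEC1 over other TEC, all 15 were looked up and 12 had a promoter in the table. Among those 12, TATAAA was in 4 (Aoc1, Prg4, Reg3b and Reg3g), the STAT motif in 1 (Reg3b), the NF-kB consensus in 1 (Reg3g), the p53/p63 half-site in 1 (Pvalb) and the AP-1 motif in 0. A match is a run of letters and not a bound site, and the lack of one says only that the letters are not in this window. Krt14 was not matched.

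The label was described first by markers of medullary epithelium, the chemokine Ccl21 and the keratins Krt5 and Krt14. It was assigned from the same expression values, so their levels are no check of it. Ccl21 set mTEC1 apart from most other TEC labels. Krt5 and Krt14 did not set it apart from early Pr and cTEC, the most numerous of them. Ccl21 was at 12495 CPM in mTEC1 (12409 to 12582) and at 751 CPM over all other TEC, a ratio of 16.6 (16.4 to 16.9). The next TEC label was mTEC-prol at 6515 CPM, followed by the small labels aaTEC2 at 1148, muscle at 749 and tuft at 530. cTEC was at 392 CPM, mTEC2 at 362, early Pr at 335, goblet at 212 and aaTEC1 at 63.4. Outside the epithelium, Ccl21 was higher in the mesenchymal label TMC4 at 22085 CPM and close to mTEC1 in the mural label vSMC/PC at 11881 and in nmSC at 10514. mTEC1 held 17.3% of all Ccl21 UMIs of the annotated stroma and TMC4 54.8%.

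Krt5 was at 3340 CPM in mTEC1 (3296 to 3385), 3119 in cTEC, 2699 in early Pr and 2622 in mTEC-prol, and it fell to 842 in mTEC2 and 835 in goblet. Krt14 was at 3622 CPM in mTEC1 (3576 to 3669), below cTEC at 4142 and early Pr at 3845, above mTEC-prol at 1549, and at 234 in mTEC2. Over all other TEC the ratios were 1.37 for Krt5 and 1.13 for Krt14, and over mTEC2 they were 3.97 and 15.5. In the fibroblast-type mesenchymal label TMC2, which should lack keratins, both were at 15.1 CPM. cTEC and early Pr stood under 2-fold from mTEC1 for both keratins, and mTEC1 held 27.1% of the stroma's Krt5 UMIs and 23.6% of its Krt14 UMIs, against 41.3% and 47.3% in early Pr.

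**Figure D1:**
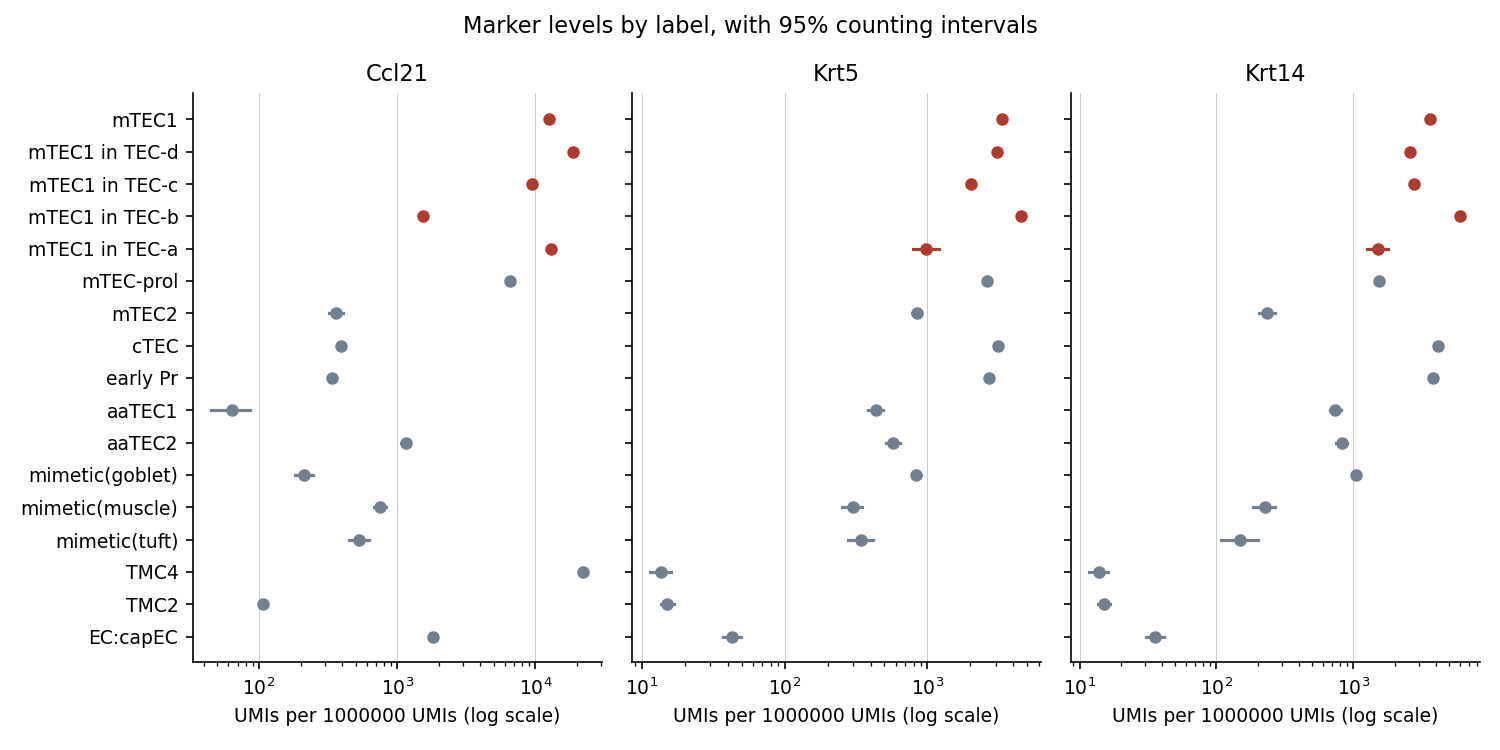
Level of Ccl21, Krt5 and Krt14 (UMIs per 1000000, log axis) in each label, with 95% Poisson intervals for counting error. Ccl21 falls from 12495 in mTEC1 to 392 in cTEC and 362 in mTEC2, whereas Krt5 and Krt14 lie between 2699 and 4142 in cTEC and early Pr and at 842 and 234 in mTEC2.

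The mTEC1 cells did not form a single cluster. The depositors' clusters put 232 of them in cluster TEC-d (48.1%, 43.6 to 52.7%), 176 in TEC-b (36.5%, 32.2 to 41.0%), 54 in TEC-c (11.2%), 16 in TEC-a (3.32%) and 4 in the endothelial cluster Endo-2 (0.830%). TEC-d was chiefly medullary: mTEC1 made up 62.0% of its 374 cells, mTEC-prol 18.7% and mTEC2 15.2%. In TEC-b mTEC1 made up 12.7% of 1388 cells, next to 63.3% early Pr and 22.4% cTEC. The median mTEC1 cell had 15129 UMIs in TEC-d, 10139 in TEC-b and 13908 in TEC-c.

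**Figure D2:**
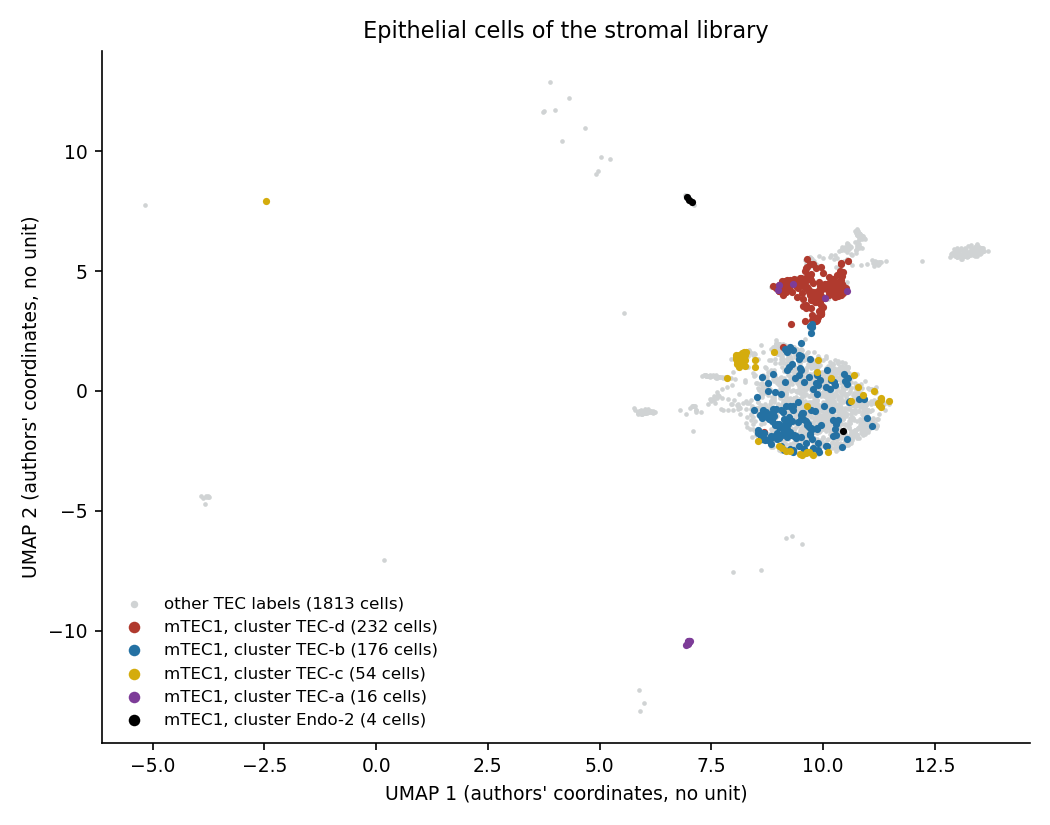
The depositors' UMAP of TEC cells, without units, with the 482 mTEC1 cells coloured by the depositors' cluster and the 1813 other TEC cells in grey. The 232 mTEC1 cells of TEC-d and the 176 of TEC-b lie in different parts of the map.

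Ccl21 divided along the same clusters. Its summed level was 18776 CPM in TEC-d mTEC1 cells (18636 to 18916), 13010 in TEC-a, 9440 in TEC-c and 1532 in TEC-b (1476 to 1590). The median TEC-d cell was at 7439 CPM (lowest 0, highest 97026), and the median TEC-b cell at 70.6 CPM. The TEC-b median equals that of cTEC at 70.6 CPM and lies beside early Pr at 62.4 and the fibroblast-type label TMC2 at 71.0. Free RNA in droplets can give such low counts to cells that do not express a gene, but it was not measured here. TMC2 was taken to lack Ccl21, although its highest cell was at 15461 CPM. The 99th percentile of TMC2, 695 CPM, was used as a background limit. Above it stood 209 of the 232 TEC-d cells (90.1%, 85.5 to 93.6%), 23 TEC-c cells (42.6%), 15 TEC-a cells (93.8%) and 10 TEC-b cells (5.68%, 2.76 to 10.2%). Over the label that made 257 of 482 cells (53.3%, 48.8 to 57.8%), and 43 mTEC1 cells lay within 2-fold of the limit on either side. The same count was 1.77% of early Pr, 3.79% of cTEC, 18.0% of mTEC2, 51.3% of mTEC-prol and 67.7% of TMC4.

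Most TEC-b mTEC1 cells were thus at the level of TMC2 cells, which were taken to lack Ccl21, against their label. The Ccl21 of TEC-b came from few cells. The 10% of TEC-b mTEC1 cells with most Ccl21 UMIs held 96.0% of its Ccl21, and the same share of TEC-d cells held 42.3%. Thinned to 3000 UMIs per cell, which left out 28 of the 482 cells, a Ccl21 UMI was found in 94.6% of TEC-d and 26.2% of TEC-b cells (54.0% unthinned). In early Pr it was found in 20.2% (55.6% unthinned) and in TMC2 in 25.5% (51.5% unthinned, median 8270 UMIs). The TEC-b share is thus close to that of TMC2. Krt5 and Krt14 UMIs were found in 97.1% and 94.7% of all thinned mTEC1 cells, against 4.99% and 4.13% in TMC2.

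**Figure D3:**
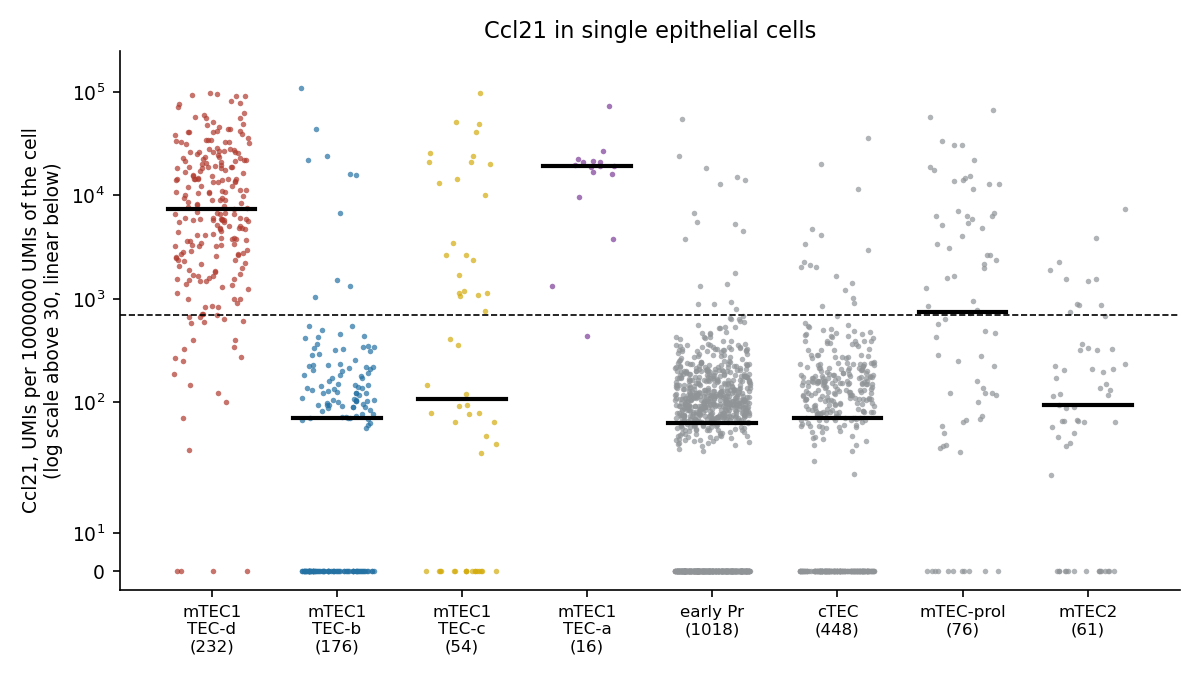
Ccl21 UMIs per 1000000 in each cell (log axis above 30) for mTEC1 cells by cluster and for other TEC labels, with bars at the medians and a dashed line at 695, the 99th percentile of TMC2. TEC-d cells centre on 7439 and TEC-b cells on 70.6, level with early Pr and cTEC.

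RNA of other cell types was also unequal among the clusters. All 8 fibroblast genes were detected, and together they were at 2146 CPM in TEC-d, 572 in TEC-b, 14131 in TEC-c and 23137 in TEC-a mTEC1 cells, against 4844 over all other TEC and 42568 in TMC2. The 10 thymocyte genes summed to 39.7 CPM in TEC-d, 22.7 in TEC-b and 470 in TEC-a, against 7064 in cells labelled Thymocyte. The part of this RNA in the levels of the small TEC-c and TEC-a sets, Ccl21 included, was not tested. With mTEC1 and the other TEC cells limited to those under 1000 CPM of the fibroblast genes, the ratio of mTEC1 to other TEC was 20.1 for Ccl21 (16.6 in all cells), 35.2 for Reg3a (28.3), 13.2 for Reg3g (14.9), 10.1 for Reg3b (11.3) and 18.1 for Acta2 (18.4). Most of what follows is therefore given for TEC-d and TEC-b apart as well as for the label.

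Ccl19, the other CCR7 ligand, had a similar spread to Ccl21. It was at 3483 CPM in mTEC1 and 541 CPM over other TEC, a ratio of 6.44. Within the label it was at 4742 CPM in TEC-d, 487 in TEC-b, 4098 in TEC-c and 10498 in TEC-a. mTEC-prol had 3144 CPM, mTEC2 1113 and TMC4 13615, and mTEC1 held 8.14% of the stroma's Ccl19 UMIs. Over TEC-d cells thinned to 3000 UMIs, Spearman's rho between Ccl21 and Ccl19 counts was 0.58 over 222 cells, which share 1 library and 1 depth.

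Against all other TEC, 355 of 9924 genes with enough signal were higher in mTEC1 (3.58%) and 324 were lower (3.26%). The median ratio over those genes was 0.998. The 15 genes with the largest ratio included the 3 secreted C-type lectins of the Reg3 family, known as antimicrobial products of gut epithelium, and actin-cytoskeleton genes of contractile cells. Reg3a was at 632 CPM against 22.3 CPM, a ratio of 28.3 (25.8 to 31.1). Reg3g was at 1235 against 83.1 CPM (14.9, 14.1 to 15.6) and Reg3b at 594 against 52.8 CPM (11.3). The 3 genes belong to 1 family, so reads may have been split or lost between them, which was not tested, and their separate levels are uncertain. mTEC1, 3.64% of the annotated cells, held 85.2% of the stroma's Reg3a UMIs, 75.2% of Reg3g and 69.7% of Reg3b. With equal weight for each TEC label of at least 50 cells, in place of each cell, the ratios were 9.39 for Reg3a, 4.78 for Reg3g, 3.67 for Reg3b and 7.99 for Ccl21, below Tagln at 12.2, Hmcn1 at 9.96 and Prg4 at 9.52.

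The Reg3 genes belonged to the TEC-d side of the label. Reg3a was at 1094 CPM in TEC-d mTEC1 cells and at 1.08 CPM, from 2 UMIs, in TEC-b. Reg3g was at 2132 and 16.8 CPM, and Reg3b at 1027 and 3.25 CPM. Their next label was mTEC-prol, with 168 CPM of Reg3a, 1036 of Reg3g and 641 of Reg3b, so Reg3b there was no lower than in mTEC1. Reg3a was also at 163 CPM in goblet and 154 in muscle. Few cells carried most of it: 13 mTEC1 cells held 50% of the Reg3a and of the Reg3g UMIs and 11 held 50% of Reg3b, where Ccl21 needed 36 cells, Krt14 89 and Krt5 93.

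In the 222 TEC-d mTEC1 cells deep enough to thin to 3000 UMIs, Reg3a was detected in 92 cells, Reg3b in 93 and Reg3g in 125. A Reg3g UMI was found in 82.6% of cells with Reg3a and in 37.7% of cells without it. Counted together, 63 cells had 0 of the 3 genes, 59 had 1, 49 had 2 and 51 had all 3. The median thinned Ccl21 count across those 4 classes was 11, 20, 32 and 52 UMIs, and that of Ccl19 was 3, 6, 9 and 15 UMIs. The keratins also stood higher, with medians of 5, 5, 8 and 8 UMIs for Krt5 and 3, 5, 6 and 7 UMIs for Krt14. Spearman's rho over the same cells was 0.60 for Reg3a with Reg3g, 0.33 for Ccl21 with Reg3a and 0.67 for Krt5 with Krt14. These values describe cells of 1 library.

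Acta2, smooth muscle actin, was at 751 CPM in mTEC1 against 40.8 CPM over other TEC (18.4, 17.2 to 19.8), and Tagln, the actin-binding protein transgelin, at 1687 against 116 CPM (14.6). Both were again higher in TEC-d (1239 and 2404 CPM) than in TEC-b (100 and 378 CPM). With equal weight for each TEC label, the ratios to other TEC were 8.44 for Acta2 and 12.2 for Tagln. Of the other mural genes, Myh11 was at 9.48 CPM in mTEC1 against 998 in vSMC/PC, Rgs5 at 3.42 against 895, Notch3 at 7.46 against 582 and Cspg4 at 2.95 against 68.8. vSMC/PC had 1266 CPM of Acta2 and 5342 of Tagln. The 6 mural genes summed to 3660 CPM in TEC-d, 490 in TEC-b and 178 over other TEC, and nearly all of the mTEC1 sum was Acta2 and Tagln. In thinned TEC-d cells Acta2 and Tagln counts had a Spearman's rho of 0.52.

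The rest of the 15 leading genes had lower levels. Aoc1, which encodes the histamine-degrading diamine oxidase, was at 229 CPM against 18.4 CPM (12.4, 11.2 to 13.9), and at 372 CPM in TEC-d and 37.9 in TEC-b. Hmcn1, an extracellular matrix protein, was at 95.3 against 9.13 CPM (10.4) and Prg4, the lubricant proteoglycan, at 67.9 against 5.03 CPM (13.5). Cdh8, a cadherin, was at 51.0 against 4.54 CPM (11.2) and Pvalb, the calcium-binding parvalbumin, at 50.8 against 3.74 CPM (13.6). Galnt14, Scube1, Scx and Fam181b were between 32.6 and 39.3 CPM, with ratios from 10.3 to 19.8. Scx is the tendon transcription factor scleraxis, and Galnt14 adds the first sugar of O-linked glycans. With equal weight for each TEC label, the ratios were 7.43 for Fam181b, 8.10 for Scube1, 6.84 for Scx and 6.02 for Galnt14. Those of Aoc1, Pvalb and Cdh8 were 5.31, 5.26 and 3.67.

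**Figure D4:**
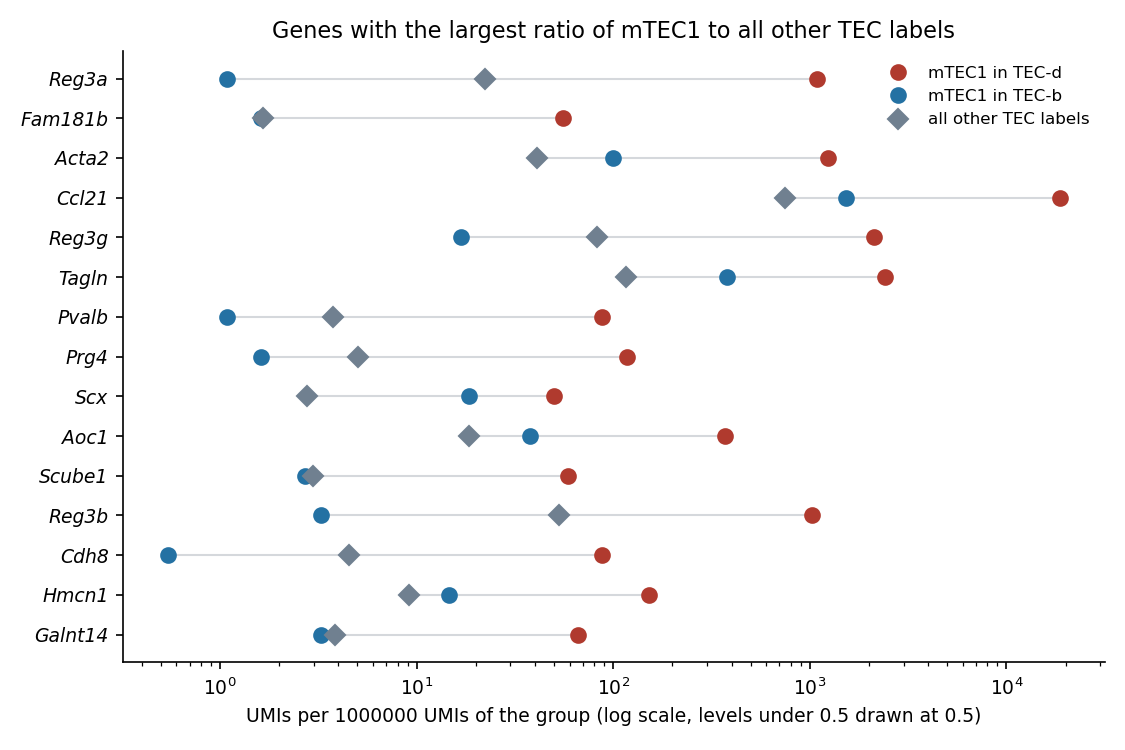
The 15 genes with the largest ratio of mTEC1 over all other TEC, as UMIs per 1000000 (log axis, levels under 0.5 drawn at 0.5) in TEC-d mTEC1 cells, TEC-b mTEC1 cells and all other TEC cells. Reg3a stands at 1094 in TEC-d and 1.08 in TEC-b.

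Among genes lower in mTEC1, several marked cortical or mimetic cells. Prss16, the thymus-specific serine protease of cortical epithelium, was at 5.60 CPM against 52.9 CPM in other TEC (9.45-fold lower, 6.78 to 13.2). Cd83, which stabilises class II MHC at the surface, was at 2.02 against 44.6 CPM (22.1-fold lower). It was not confined to cortical cells, since the mTEC2 cells of TEC-d, given below, stood above both levels. Fabp4, a fatty acid carrier, was at 65.4 against 561 CPM (8.57-fold) and Aldh1a1, which makes retinoic acid, at 23.2 against 132 CPM (5.69-fold). Sult5a1 was at 9.02 against 259 CPM (28.7-fold) and Cdkn1c, the cell-cycle inhibitor p57, at 40.6 against 1145 CPM (28.2-fold). Cdkn1c was high in small labels, with 12144 CPM in muscle, 10940 in aaTEC1, 8815 in goblet and 4924 in tuft, whereas early Pr at 23.4 and cTEC at 19.4 CPM were below mTEC1. The other genes of this group were Atp2a3, Slc16a11, Plxna4, Plcg2, Gchfr, Srgn, Cftr, Tspan13 and Pi16, from 6.22-fold to 17.1-fold lower. The ratio to other TEC of Fabp4 was 0.665 without the cells above the 95th percentile of UMIs of their label, that of Pi16 was 0.828 in cells under 1000 CPM of the fibroblast genes, and that of Srgn was 0.502 in cells with no thymocyte UMI, each short of 2-fold.

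A further ranking took the 8127 genes with at least 100 UMIs in mTEC1 and a UMI in at least 10% of its cells. This filter was set on mTEC1 alone, so the counts hold only for genes detected there. Over the 17 stromal labels of at least 50 cells, mesenchyme and endothelium included, mTEC1 had the top level of 205 of these genes. It led the next label at least 2-fold for 6. These were Reg3a (3.76-fold above mTEC-prol, 3.29 to 4.29), the tubulin-modifying enzyme gene Ttll3 (47.3 against 13.9 CPM, 3.40-fold), Scx (2.55-fold), the matrix protein gene Tnc (464 against 192 CPM, 2.42-fold), the heparin-binding growth factor gene Mdk (670 against 299 CPM, 2.24-fold) and the adhesion molecule gene Cntn5 (2.01-fold). The next label was mTEC-prol for all 6. Bche, Serpina3a, Rpusd3 and Atp10b followed, at 1.98-fold, 1.88-fold, 1.77-fold and 1.76-fold. Ccl21 was not among them because TMC4 stood above mTEC1. In labels of under 50 cells, Cntn5 reached 136 CPM in muscle against 67.5 in mTEC1, and Tnc 331 CPM in tuft. Rpusd3, a mitochondrial RNA-modifying enzyme gene, was at 62.8 CPM in TEC-b and 67.0 in TEC-d.

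Cortical genes were low in the label as a whole and close to the early Pr level in its TEC-b cells. Of 9 cortical genes with enough signal, 7 were lower than in other TEC and 0 were higher, with a median ratio of 0.465. Of all genes compared, 3.26% were lower and 3.58% higher. Ccl25, the chemokine that draws CCR9-bearing progenitors, was at 2.95 CPM in mTEC1 and 535 CPM in cTEC (181-fold lower, 115 to 284). Ly75, the endocytic receptor DEC-205, was at 255 against 536 CPM in other TEC, Cxcl12 at 719 against 1447, the Kit ligand gene Kitlg at 98.7 against 212 and Tbata, a gene of thymic epithelium, at 217 against 870. Within the label, Ctsl, the cathepsin that processes class II ligands in cortex, was at 213 CPM in TEC-d and 1676 in TEC-b, against 1690 in the early Pr cells of TEC-b. Cxcl12 was at 207 and 1549 CPM, Ly75 at 122 and 510 CPM and Kitlg at 37.3 and 167 CPM. Of 6 cortical genes, 4 were lower in TEC-d than in TEC-b and 0 were higher, against 6.96% and 11.8% of all genes compared.

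Genes of the stages around Aire expression were higher in TEC-d cells, and Aire itself was nearly absent. Over the label, 3 of 9 were higher than in other TEC and 2 were lower, against 3.58% and 3.26% of all genes compared. The higher ones included Il2ra, the interleukin-2 receptor alpha chain, at 234 against 26.5 CPM (8.85, 8.05 to 9.73), and Fezf2, a regulator of tissue antigen expression, at 52.2 against 24.9 CPM (2.09). Fezf2 was not highest in mTEC1. Thinned to 3000 UMIs, a Fezf2 UMI was found in 8.81% of mTEC1, 32.7% of mTEC2 and 42.5% of mTEC-prol cells. In early Pr it was found in 0.0998% and in cTEC in 0%. mTEC1 held 64.2% of the stroma's Il2ra UMIs. Aire was at 0.466 CPM in mTEC1, from 3 UMIs, against 468 CPM in mTEC2, a ratio of 1004 in favour of mTEC2 (323 to 3127). The chemokine Ccl22 was at 2.80 against 31.6 CPM over other TEC.

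All 7 Aire-stage genes that could be compared between the clusters were higher in TEC-d than in TEC-b mTEC1 cells, with a median ratio of 12.6. The background for that comparison is 1138 of 9661 genes higher in TEC-d (11.8%) and 672 lower (6.96%). Il2ra was at 395 and 18.4 CPM, the RANK gene Tnfrsf11a at 85.1 and 7.04 CPM, Spib at 27.3 and 2.17 CPM, Cd80 at 31.1 and 4.33 CPM and Cd40 at 108 and 42.8 CPM. Fezf2 was at 89.7 CPM in TEC-d and at 1.08 CPM, from 2 UMIs, in TEC-b, a ratio of 55.2 with those 2 UMIs set to 3 (17.7 to 172). TEC-d was thus high for both CCR7 ligands and for genes of the Aire-stage list.

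Some NF-kB receptors and mediators were also higher in TEC-d. Against other TEC 1 of 21 was higher, Tnfrsf12a, the TWEAK receptor gene, at 70.0 against 23.6 CPM, and 0 were lower. Such a count is near the 3.58% higher and 3.26% lower over all genes compared. Between the clusters 7 of 18 were higher in TEC-d and 0 lower (11.8% and 6.96% of all genes), with a median ratio of 1.46. They were Tnfrsf11b, the soluble RANKL decoy osteoprotegerin, at 148 against 2.71 CPM (54.7, 22.7 to 132), Tnfrsf11a, Birc3 at 116 against 40.1 CPM, Cd40, Relb at 151 against 61.2 CPM, Traf3 and Ikbkb. mTEC2 stood above the mTEC1 label for Tnfrsf11a at 276 against 51.3 CPM and for Tnfrsf11b at 516 against 90.3 CPM.

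The 8 largest ratios of TEC-d over TEC-b included the Reg3 genes. Reg3a had a ratio of 674 with the 2 TEC-b UMIs set to 3 (217 to 2089), Reg3b of 316 and Reg3g of 127 (89.3 to 181). The netrin receptor gene Unc5c was at 245 against 1.62 CPM, from 3 UMIs (151, 48.5 to 468), S100a3 at 228 against 1.62 CPM (141), the lipoxygenase gene Alox12e at 500 against 5.96 CPM (84.0), and Sh3tc2 at 167 CPM against 0 UMIs, at least 103-fold higher. In the other direction Gpha2, a glycoprotein hormone subunit, was at 1055 CPM in TEC-b and 9.18 in TEC-d (115-fold, 81.9 to 161). The retinol carrier gene Rbp4 was 29.0-fold higher in TEC-b and Igfbp2, which binds insulin-like growth factors, 26.0-fold, followed by Iqgap2, Frmpd4, Adora2b, Rab6b and Cyp2s1 at 16.6-fold to 25.9-fold.

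Keratins differed in both directions. Krt17, a keratin of basal and regenerating epithelium, was at 3402 CPM in mTEC1 against 799 in other TEC (4.26, 4.17 to 4.34). Krt80 was also higher and Krt10, of differentiating epidermis, lower at 39.8 against 101 CPM, out of 11 keratins. Of all genes compared, 3.58% were higher and 3.26% lower. Between the clusters 3 of 11 were higher in TEC-d and 5 were lower (11.8% and 6.96% of all genes). Krt17 was at 4655 CPM in TEC-d and 2192 in TEC-b, and Krt18 at 1496 and 746 CPM. Krt14 was at 2609 and 6014 CPM, Krt15 at 728 and 1748 CPM, Krt19 at 296 and 1184 CPM and Krt13 at 95.3 and 781 CPM. Krt5 was at 3052 CPM in TEC-d and 4506 in TEC-b, under 2-fold apart. Krt14 was therefore higher in the TEC-b cells, most of which had no Ccl21 above background.

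Of 25 epithelial transcription factors, Sox4 at 443 against 197 CPM (2.25) and Fezf2 were higher in mTEC1 than in other TEC, and Klf4 at 65.1 against 162 CPM, Elf3, Ehf and Aire were lower. Of all genes compared, 3.58% were higher and 3.26% lower. Fezf2 was found in larger shares of mTEC2 and mTEC-prol cells than of mTEC1 cells, as given above. Tp63, the factor of basal epithelial self-renewal, was at 294 CPM in mTEC1, 294 in TEC-d, 355 in TEC-b and 57.1 in mTEC2. Foxn1, the master regulator of thymic epithelium, was at 31.7 CPM in mTEC1 and 29.0 in other TEC. Pax1 and Pax9, pharyngeal pouch factors, were at 54.8 and 139 CPM in TEC-d and at 145 and 238 CPM in TEC-b. Counts for the whole list of 24 comparable factors between the clusters were 4 higher in TEC-d and 6 lower (11.8% and 6.96% of all genes).

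Among 20 chemokine genes, Ccl21 and Ccl19 were the 2 higher in mTEC1 than in other TEC, and 8 were lower, including Ackr4, the scavenger receptor that takes up both CCR7 ligands and Ccl25, at 163 against 630 CPM. Of all genes compared, 3.58% were higher and 3.26% lower. Ackr4 was at 25.7 CPM in TEC-d mTEC1 cells, 380 in TEC-b mTEC1 cells and 1030 in the early Pr cells of TEC-b. The cells with the highest Ccl21 and Ccl19 therefore had the least Ackr4 of these 3 sets, but low Ackr4 was not particular to them. Thinned to 3000 UMIs, an Ackr4 UMI was found in 2.70% of TEC-d mTEC1 cells and 6.85% of mTEC-prol cells. It was found in 0% of mTEC2 cells, where Ccl21 was at 362 CPM. Cxcl13, the B-cell chemokine, was at 41.8 CPM in mTEC1 against 135 in other TEC and 1366 in mTEC2, and within the label at 52.4 CPM in TEC-d and 3.79 in TEC-b. In total 7 of 16 chemokine genes were higher in TEC-d than in TEC-b and 4 were lower (11.8% and 6.96% of all genes). Of 14 cytokines and growth factors, 0 were higher over other TEC and 2, Kitlg and Tslp, were lower. Il7, the cytokine that sustains early thymocytes, was at 125 against 106 CPM, and the alarmin gene Il33 at 1256 against 1690 CPM, with 763 in TEC-d and 1903 in TEC-b.

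Class I and class II presentation genes were near the level of other TEC as a group. Of 22, 1 was higher and 0 were lower, against 3.58% and 3.26% of all genes compared. The higher gene was Nlrc5, the transactivator of class I genes, at 115 against 25.0 CPM (4.60, 4.12 to 5.13). TEC-d had 189 CPM of Nlrc5 and TEC-b 10.3. Between the clusters 4 genes were higher in TEC-d, with RT1-A2, a class I heavy chain gene, at 67.0 against 24.4 CPM and Tap1 at 149 against 73.1 CPM, and 5 were lower, with the class II chain gene RT1-Da at 583 against 1484 CPM. Of all genes compared between the clusters, 11.8% were higher in TEC-d and 6.96% lower. RT1-A2 belongs to a family of near-identical class I genes, so its level is uncertain. Of the interferon-stimulated genes, 3 of 19 were higher in mTEC1 than in other TEC and 0 were lower. These were Mx1 at 62.6 against 21.2 CPM, Mx2 at 118 against 52.7 CPM and Isg15 at 217 against 98.1 CPM. TEC-d was above TEC-b for 8 of 19, for example Isg15 at 315 against 82.9 CPM and Bst2 at 255 against 62.8 CPM.

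Adhesion and junction genes were called in both directions in small numbers. Of all genes compared with other TEC, 3.58% were higher and 3.26% lower. Of 33 basement membrane and adhesion genes, 3 were higher than in other TEC and 3 were lower, among them the nidogen gene Nid1 at 56.9 against 266 CPM. Cldn1, a tight-junction claudin, was at 157 against 56.8 CPM, with 264 CPM in TEC-d and 19.0 in TEC-b. It was the 1 higher of 14 junction genes, and 2 were lower. Of 13 cell-cycle genes 4 were higher, the replication genes Mcm2, Mcm3 and Mcm6 and the G1 cyclin gene Ccnd1 at 283 against 138 CPM, and Cdkn1c was lower. Mki67, the proliferation antigen, was at 29.1 CPM in mTEC1 and 34.0 in other TEC, with 46.7 CPM in TEC-d and 5.96 in TEC-b. For 19 Notch and Wnt genes and 13 BMP, FGF and activin genes, 0 passed 2-fold in either direction against other TEC. Between the clusters, the Wnt ligand gene Wnt10a was at 46.2 against 2.71 CPM and Hes6 at 269 against 31.4 CPM, both higher in TEC-d, and Wnt4 was at 62.1 against 260 CPM.

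Of 21 protease inhibitors and secreted defence genes, 6 were higher in mTEC1 than in other TEC and 1, the lysozyme gene Lyz2, was lower. Of all genes compared, 3.58% were higher and 3.26% lower. Clu, the secreted chaperone clusterin, was at 806 against 321 CPM and S100a14 at 176 against 63.6 CPM. S100a8 and S100a9, the calgranulins of neutrophils, were also among the 6, with ratios of 3.96 and 4.27, but 1 TEC-d cell of 27224 UMIs held 59.0% of the label's S100a8 and 63.6% of its S100a9. Without that cell the ratios were 1.63 (1.48 to 1.79) and 1.56. The same cell held 78.3% of RatNP-3b, 78.4% of Defa5 and 75.2% of Np4, all defensin genes, whose ratios went from 3.59 to 0.784, from 4.83 to 1.05 and from 4.19 to 1.04.

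Some of the genes that varied most among mTEC1 cells were held largely by single cells. The Fano factor, variance over mean of counts thinned to 3000 UMIs, was 96.3 for Ccl21 over 454 cells, against a median of 1.12 over 5402 genes. S100a8 at 79.7, S100a9 at 77.6, RatNP-3b at 45.3, Defa5 at 39.3 and Np4 at 37.8 followed, each with over 50% of its UMIs in the single cell above. Obp3, an odorant-binding lipocalin, reached 36.3, and another TEC-d cell of 34395 UMIs held 57.6% of it. Its ratio to other TEC was 2.48 with that cell and 1.06 without it. Pla2g2a at 38.6, Apoe at 33.6, Dcn at 26.9, Col3a1 and Gsn at 22.2 followed, with mt-Rnr2, COX3 and COX1. Dcn and Col3a1 are fibroblast genes, and their cells' fibroblast RNA is given above by cluster. Apoe, the lipid carrier, was at 6487 CPM in TEC-d and 21465 in TEC-b. Genes detected per cell at 3000 UMIs differed little, with a median of 1646 in mTEC1, 1677 in its TEC-d cells, 1604 in its TEC-b cells and 1608 in early Pr.

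Mimetic genes, which mark medullary cells that copy other tissues, had 2 of 11 higher than in other TEC and 5 lower. Of all genes compared, 3.58% were higher and 3.26% lower. Foxj1, the factor of ciliated cells, was at 19.9 against 5.35 CPM and the tuft-cell factor gene Pou2f3 was also higher. Foxi1, the ionocyte factor, had 0 UMIs in mTEC1, which allows up to 0.466 CPM, against 48.5 CPM in other TEC, at least 104-fold lower. B-cell genes summed to 0.622 CPM in mTEC1 with Cd79b and Ms4a1 among its genes at 0 UMIs. Endothelial genes summed to 54.9 CPM against 81.0 in other TEC, and myeloid genes to 20.5 against 34.1 CPM.

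mTEC1 was then set against single labels. Against early Pr, 583 of 9714 genes were higher (6.00%) and 287 lower (2.95%). Reg3a was at 632 against 0.906 CPM (698, 386 to 1261), Reg3g at 1235 against 2.39 CPM (517) and Reg3b at 594 against 1.15 CPM (515). The neuronal tubulin gene Tubb2b was at 54.9 against 0.412 CPM (133), and Tcerg1l, Cdh8 and Nxnl2 had 2 or 3 UMIs in early Pr. All 7 Aire-stage genes and 7 of 20 NF-kB genes were higher than in early Pr. Genes lower in mTEC1 were Ackr4 at 163 against 947 CPM (5.83-fold), the cytochrome gene Cyp2e1 at 15.9 against 118 CPM (7.44-fold), Cthrc1 at 26.3 against 146 CPM (5.55-fold), Krtap17-1, Ntsr1, Pi16, Rims1 and Aldh1a1.

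Within the shared cluster TEC-b, fewer genes passed 2-fold. There 83 of 9237 genes were higher in mTEC1 than in early Pr (0.899%) and 60 were lower (0.650%). Ccl21 led at 1532 against 81.6 CPM (18.8, 17.4 to 20.3), although it was detected in 54.0% of mTEC1 and 54.8% of early Pr cells of TEC-b and rests on few cells. The potassium channel gene Kcnma1 was at 134 against 11.3 CPM (11.9), Acta2 at 100 against 13.6 CPM (7.37), Tagln at 378 against 52.3 CPM (7.22) and Krt17 at 2192 against 753 CPM (2.91, 2.80 to 3.02). Krt17 was detected in 97.2% of the mTEC1 cells of TEC-b. Timp1, Tnfrsf12a and Nupr1 followed at 2.96-fold to 3.57-fold, and Foxn1 was at 42.2 against 16.9 CPM (2.50). Lower were Cyp2e1 (3.85-fold), Aldh1a1 at 42.8 against 135 CPM (3.16-fold), Ntsr1, Krtap17-1, Cthrc1, the VEGF receptor gene Kdr, Dab1 and Ccn4. Of the Aire-stage and interferon-stimulated genes with enough signal, 0 of 2 and 0 of 18 passed 2-fold.

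Against cTEC, 571 of 9781 genes were higher in mTEC1 (5.84%) and 374 lower (3.82%). The 3 Reg3 genes led again, with Reg3g at 2.81 CPM in cTEC (440, 260 to 743). Pla2g4c, Calcb, Prg4, Tubb2b and Tcerg1l followed, each with 1 to 3 UMIs in cTEC. Of 9 cortical genes 8 were lower in mTEC1 and 0 higher, with a median ratio of 0.276. After Ccl25 came Ooep at 3.26 against 157 CPM (48.0-fold), Prss16 at 5.60 against 207 CPM (37.0-fold), Cd83 (35.2-fold), Fabp4 at 65.4 against 2214 CPM (33.8-fold), the fat-cell regulator gene Pparg (17.1-fold), Lmod3 and Gchfr. Fabp4 and Pparg were each detected in few cells, 11.4% and 12.1% of cTEC.

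Against mTEC2, 1408 of 10506 genes were higher in mTEC1 (13.4%) and 1695 lower (16.1%). mTEC2 has 61 cells. Tnc was at 464 against 4.57 CPM (102, 38.1 to 271), Cyp1b1 at 262 against 5.71 CPM (45.9), Acta2 at 751 against 14.9 CPM (50.5), Ccl21 at 34.5-fold and Fhod3, a regulator of actin assembly, at 28.5-fold. Reg3a, Reg3b and Dapl1 had 2, 3 and 1 UMIs in mTEC2. Basement membrane and adhesion genes had 19 of 34 higher in mTEC1 and 2 lower, with a median ratio of 2.43, and the hemidesmosome genes Itgb4 (280 against 54.8 CPM) and Col17a1 (271 against 57.1 CPM) belong to them. In the other direction 9 of 24 presentation genes were lower, with the invariant chain gene Cd74 at 2103 against 9719 CPM and RT1-Da at 871 against 6720 CPM, and 1 was higher. Of 11 Aire-stage genes 9 were lower and 1 higher, and of 14 mimetic genes 11 were lower and 1 higher.

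Within cluster TEC-d, which holds most mTEC2 cells, 1436 of 10461 genes were higher in mTEC1 than in mTEC2 (13.7%) and 1697 were lower (16.2%). Tnc was at 654 against 3.56 CPM (184), Acta2 at 1239 against 15.4 CPM (80.2), Ccl21 at 18776 against 372 CPM (50.5, 45.2 to 56.4), Mdk at 1020 against 28.5 CPM (35.8), Hmcn1 at 152 against 4.75 CPM (32.1) and Cyp1b1 at 177 against 5.94 CPM (29.8). Lower were Aire at 0.810 against 487 CPM, a ratio of 601 from 3 UMIs (193 to 1872), Cd83 at 1.35 against 476 CPM (353-fold), the granzyme gene Gzmc at 1.35 against 493 CPM and the natriuretic peptide gene Nppb at 1.08 against 563 CPM. Ibsp, Kap, Tph1 and Cryaa, genes of bone, kidney, serotonin-producing cells and lens, had 1 to 3 UMIs in mTEC1 and 264 to 857 CPM in mTEC2. The thymocyte genes summed to 190 CPM and the myeloid genes to 380 CPM in mTEC2, above the 40.3 and 20.5 CPM of mTEC1, and the part of the myeloid RNA in the mTEC2 differences was not tested. Over the whole labels, in cells with no UMI of the thymocyte genes, which left 21 mTEC2 cells, 1073 genes were higher in mTEC1 than in mTEC2 and 1705 lower, and 688 of the 1408 higher and 1008 of the 1695 lower genes were among them.

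On the section, the depositors decomposed each square bin into cell types with a weight per type and divided the tissue into a capsular area, the cortex and medullary areas named mECA and mEFA, names that the files do not spell out. mTEC1 came first in 4168 bins among the 592087 with a label (0.704%, 0.683 to 0.726%), of which 28 carried no other label and 1779 were marked confident. It was the second label of 17069 bins and the third of 20. Of the second-place bins, 29.4% had double-negative thymocytes as first label and 13.2% double-positive thymocytes. The median mTEC1 bin held 514 UMIs against 326 over all bins, so a typical call rests on 514 UMIs over all genes.

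mTEC1 bins were most frequent in mECA. They made up 4.17% of labelled bins there (3.97 to 4.37%, 1674 of 40180), 2.40% in mEFA (2.19 to 2.63%, 465 of 19354), 0.588% in the capsular area and 0.319% in the cortex. The mEFA share was 0.577 times the mECA share (0.521 to 0.638). mTEC-prol went from 9.39% in mECA to 2.18% in mEFA and mTEC2 from 8.96% to 2.04%, both steeper than for mTEC1. Among bins with 1 of the 5 epithelial labels, mTEC1 was 18.4% in mECA (17.6 to 19.3%) and 35.0% in mEFA (32.4 to 37.6%), a ratio of 1.90 (1.74 to 2.06). It was 19.1% in the capsular area and 15.2% in the cortex. In segmented cell bins, mTEC1 was 18.1% of the epithelial labels in mECA and 24.7% in mEFA. There mTEC2 at 38.1% and mTEC-prol at 30.8% of mEFA stood above mTEC1, so its first place in mEFA depends on the kind of bin. Adjacent bins can hold parts of 1 cell, so bins are not independent and the intervals are too narrow. The bin labels come from a decomposition whose reference may hold these same cells. The areas may themselves follow an mTEC score. The shares by area are therefore descriptions and not an independent check of where mTEC1 cells lie.

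**Figure D5:**
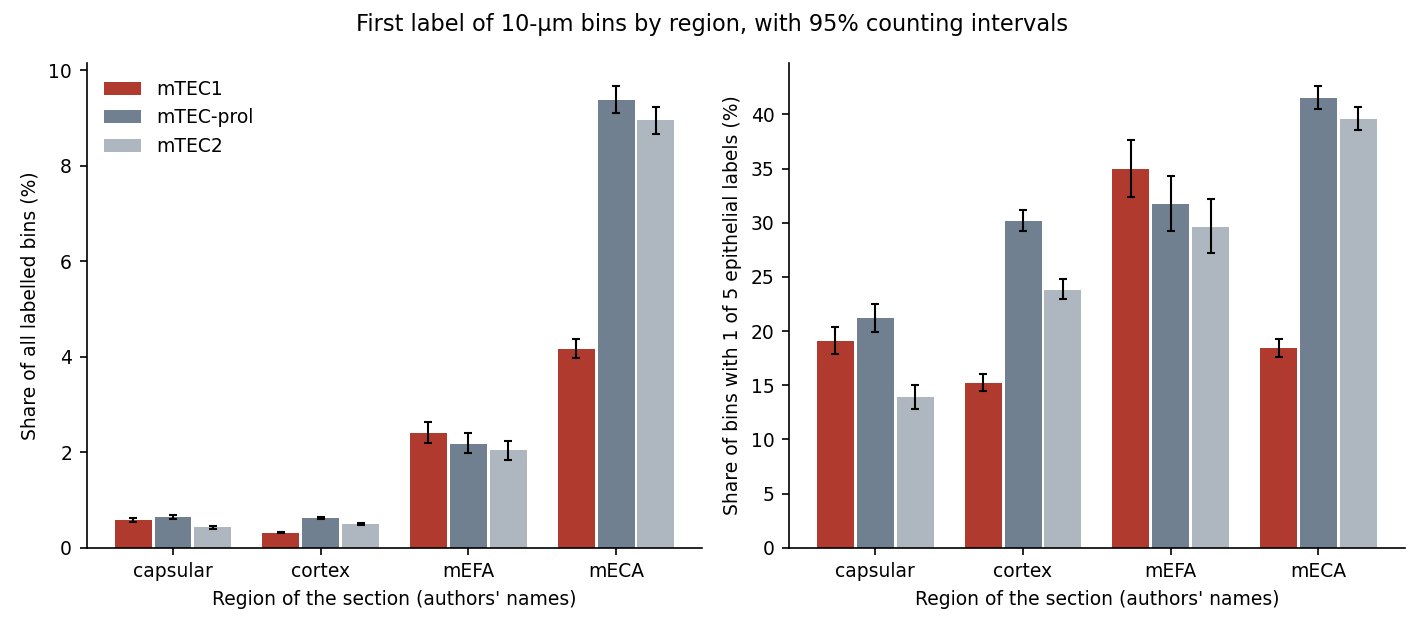
Share of bins with first label mTEC1, mTEC-prol or mTEC2 by region of the section, among all labelled bins (left) and among bins with 1 of the 5 epithelial labels (right), with 95% binomial intervals. From mECA to mEFA, mTEC1 falls from 4.17 to 2.40% of all bins and rises from 18.4 to 35.0% of epithelial bins. In segmented cell bins, not drawn, the epithelial share goes from 18.1 to 24.7%.

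By place, 40.2% of mTEC1 bins lay in mECA, 31.3% in the cortex, 17.4% in the capsular area and 11.2% in mEFA. For mTEC2 the shares were 54.8%, 31.1%, 8.03% and 6.00%, and 74.1% of early Pr bins were capsular. Within mECA, 49.8% of mTEC1 bins (47.4 to 52.2%) touched another mTEC1 bin among their 8 neighbours, against 26.1% of all labelled bins there, 27.1% of mTEC2 bins and 34.4% of mTEC-prol bins. mTEC1 bins touched mTEC-prol in 58.4% (46.0% of all bins) and mTEC2 in 43.8% (42.6% of all bins). Touching the same label was not particular to mTEC1. mTEC2 bins touched another mTEC2 bin in 75.4%, and mTEC-prol bins another mTEC-prol bin in 72.6%. A deposited mTEC score had a median of 0.293 on mTEC1 bins in mECA, -0.0933 in mEFA and -0.0782 in the cortex, and 0.317 on mTEC-prol and 0.265 on mTEC2 bins of mECA.

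The dissociated library and the section gave different proportions of the medullary labels. In suspension there were 7.90 mTEC1 cells for each mTEC2 cell, and on the section 0.635 mTEC1 bins for each mTEC2 bin. Over the 5 epithelial labels mTEC1 was 23.1% of cells and 18.3% of bins. A cell and a bin are different units, sorting and release of cells set the first, and the decomposition sets the second, so the values stand side by side without a direction.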

How the data were processed

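The authors deposited UMI counts per gene and cell as sparse matrices, made with Cell Ranger 8.0.0 on mRatBN7.2 and analysed with Seurat 5.3.0, per the submitters' processing notes. The cell tables the authors deposited give labels, clusters, total counts and the percent of mitochondrial counts per cell, and UMAP coordinates, which are scores without a unit. For the section the authors deposited a label and a weight per cell type, a fraction of each bin, beside an mTEC score. How the weights and scores were set up is not given in the sources used here.

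UMIs were summed per label and divided by the label's total (CPM). Intervals were exact Poisson for levels, exact Clopper-Pearson for shares and log-normal for ratios, all 95%. A level under 3 UMIs was set to 3 in a ratio. Genes with a mean of both levels of at least 10 CPM were compared, and 2-fold was the limit for higher or lower. For shares of cells, cells were thinned to 3000 UMIs (seed 7). No doublets were called or removed here, and only annotated cells were used. The calculations were tested on simulated data with known ratios. Calculations ran in Python 3.11.15 with pandas 2.3.3, SciPy 1.17.1 and NumPy 2.4.6, and plots were drawn with matplotlib 3.10.9.

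The members and all 25 gene lists (448 genes, of which 3 are not among the 34034 features) were chosen with earlier results of these data known. Named genes were Ccl21, Krt5 and Krt14; the ends of each list; the 15 genes with the largest and the 15 with the smallest ratio against all other TEC, and 8 of each against single labels; the 10 largest leads over stromal labels; and the 15 largest Fano factors. The ratio lists needed 100 UMIs in the higher group and a UMI in 10% of its cells. Il7, Il33, Tp63, Foxn1, Pax1, Pax9, Mki67, Itgb4, Col17a1 and the genes of comparisons between clusters were chosen after their values were seen, as were those comparisons. Alternatives covered how UMIs were combined, totals, depth, thymocyte and fibroblast RNA, filters, folds, label weights, clusters and how bins were counted. A few genes that the rule names are not reported here. The thymocyte library was used only to count shared barcodes.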

Additional observations from a re-analysis of the deposited data

How the results depend on the processing

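No paired analysis was possible because no label or region is held by more than 1 sample. Of 403 values recomputed for 52 results, 197 moved by less than their interval or 1.5-fold in a count, 193 moved further and 13 changed direction; totals without mitochondrial, ribosomal protein and haemoglobin genes left 38 of 41 in place. Genes higher and lower than in other TEC numbered 657 and 892 with a mean of at least 2 CPM, 152 and 133 at 3-fold, and 216 and 630 with equal weight of labels. Against early Pr they numbered 1267 and 559 at 2 CPM and 314 and 68 at 3-fold, and against cTEC 1245 and 746, and 286 and 124. Against mTEC2, 3652 were lower at 2 CPM and 634 higher at 3-fold. Filters and folds act by admitting more or fewer genes. Limits chosen after seeing the data were the clusters, the fibroblast limit, the epithelial total and the removal of single cells. With TEC-d mTEC1 cells alone the counts were 728 and 819 against other TEC, 1061 and 803 against early Pr and 1002 and 853 against cTEC, and Krt14 turned to a ratio of 0.815. With TEC-b cells alone 36 and 532 genes were higher and lower than in other TEC, and 64 and 69 were higher than in early Pr and cTEC. There the ratio to other TEC turned for Ccl19 (0.902), Cdh8 (0.358), Fam181b (0.986), Galnt14 (0.848), Prg4 (0.323), Pvalb (0.434), Reg3a (0.0728), Reg3b (0.0616), Reg3g (0.202) and Scube1 (0.907); the cause was not tested. Without 1 cell RatNP-3b turned to 0.784. The share of cells with a UMI was 56.3% for Ccl21, 82.8% for Krt5 and 81.7% for Krt14 at 1000 UMIs per cell, and 78.4%, 98.8% and 97.3% unthinned. The mECA share of mTEC1 bins and its mEFA to mECA ratio were 3.86% and 0.485 in segmented cell bins, 14.9% and 0.830 for the label in any place, 0.0315% and 0.787 in bins given 1 type, 7.57% and 0.644 for confident labels, and 18.4% and 1.90 among epithelial labels, where the direction turns because the denominator also falls in mEFA; the ratio was 0.731 for summed weights. A planned restriction to cells whose cluster names the same TEC group was not run, because clusters TEC-a to TEC-e carry no such names. The 61 cells of mTEC2 limit its comparison, and 1 library per group leaves variation between rats unmeasured.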
